A study of Saccharomyces cerevisiae with 37 samples.

Results

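A set of 10 genes of beta-1,3-glucan synthesis and of the cell wall integrity pathway was followed through the hour after copper was added to budding yeast. The glucan synthase genes were GSC2 (YGR032W, also called FKS2) and FKS1 (YLR342W), and the surface sensor genes SLG1 (YOR008C, also called WSC1) and MID2 (YLR332W). The others were the GTPase gene RHO1 (YPR165W), the kinase genes PKC1 (YBL105C), BCK1 (YJL095W), MKK1 (YOR231W) and SLT2 (YHR030C), and the transcription factor gene RLM1 (YPL089C). They were chosen by name, with earlier results of these data known, as 10 of the 6464 genes in the count table. The filter on low counts passed 9 of the 10 and 4995 genes in all, and RLM1 did not pass. The array strain carried a 25x array of pCUP1-GFA1, that is, GFA1 behind the promoter of the copper metallothionein gene CUP1, and WT carried none. The labels give both as BY4741 background, haploid and MAT a, and name 1 strain for all array libraries. The count columns of array replicates 1 and 2 nevertheless carry different strain numbers, and whether these are separate isolates or cultures of 1 isolate is not stated. Cultures from rich medium were moved for about 2 h into minimal medium lacking copper, and sampled at 0 min. Copper sulfate followed (500 uM in the treatment note, 500 mM in the growth note, not settled here), with 8 further samples from 5 to 60 min. Each strain had 2 libraries at each time, and WT had 1 more at 0 min, which gave 18 array and 19 WT libraries. Without a copper-free culture at later times, the effect of copper and that of elapsed time cannot be told apart. Gfa1 makes the first committed step towards UDP-N-acetylglucosamine, the precursor of chitin.

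The yeast wall is built mainly of beta-1,3-glucan, which is polymerised at the plasma membrane by a synthase with Fks1 or Gsc2 as its catalytic subunit. Fks1 is the main subunit in growing cells, while GSC2 is known as the gene used under wall stress, heat, poor carbon sources and calcium signalling through calcineurin. Sensors such as Slg1 and Mid2 activate Rho1, which is both a regulatory subunit of the synthase and the activator of Pkc1. Pkc1 in turn acts on a MAP kinase cascade of Bck1, Mkk1 (with its twin Mkk2) and Slt2, whose targets include Rlm1 and the factor SBF, made of Swi4 and Swi6. The pathway works largely by phosphorylation, which transcript counts do not measure.

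GSC2 and FKS1 are relatives, so the first point is whether their reads can be told apart. Both have 1 exon: GSC2 lies at VII:548264-553951 and FKS1 at XII:809997-815627 in the R64 reference of RefSeq, each on the plus strand. Over 5616 coding bases aligned without a gap they were 80.4% identical, and over the last 300 coding bases of GSC2, nearest to where 3′-end libraries are read, 72.0% identical with no shared run longer than 14 bases. The last 120 coding bases, stop codon included, are shown because they lie nearest the sequenced end. Capitals mark the 29 bases that differ between them.
GSC2 coding end, VII:553832-553951: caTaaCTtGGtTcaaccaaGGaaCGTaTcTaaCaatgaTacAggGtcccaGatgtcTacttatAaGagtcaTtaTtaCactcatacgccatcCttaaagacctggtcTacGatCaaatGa
FKS1 coding end, XII:815508-815627: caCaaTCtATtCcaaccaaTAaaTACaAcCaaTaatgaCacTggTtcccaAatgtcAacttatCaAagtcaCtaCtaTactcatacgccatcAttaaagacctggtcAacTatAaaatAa

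The bases before the start codons of GSC2, FKS1 and SLT2 are shown because these 3 genes carry the results on the synthase and on the kinase. Each stretch covers 450 to 301 bases before the start codon, read on the strand of its gene, which is the minus strand for SLT2. Capitals mark matches on either strand to the SBF motif CNCGAAA or to CTANNNNTAG, a broad form used here for the Rlm1 motif. N stands for any base, and a stricter form was not searched.
GSC2 upstream, VII:547814-547963: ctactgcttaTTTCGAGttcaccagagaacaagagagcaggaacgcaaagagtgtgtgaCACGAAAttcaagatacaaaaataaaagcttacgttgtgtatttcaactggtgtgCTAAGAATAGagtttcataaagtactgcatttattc
FKS1 upstream, XII:809547-809696: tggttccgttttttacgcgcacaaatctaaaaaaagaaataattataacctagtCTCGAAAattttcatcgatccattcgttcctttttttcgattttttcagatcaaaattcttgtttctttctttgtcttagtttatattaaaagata
SLT2 upstream, VIII:170645-170794: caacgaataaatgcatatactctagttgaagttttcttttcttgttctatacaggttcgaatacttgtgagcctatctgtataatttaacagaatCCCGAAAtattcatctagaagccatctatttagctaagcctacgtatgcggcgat

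Within 500 bases before the start codon, GSC2 had 2 matches to the SBF motif, at 440 to 434 and 391 to 385 bases, and 1 to the Rlm1 motif, at 336 to 327 bases; none of the matches overlap. FKS1 had 1 SBF match at 396 to 390 bases and SLT2 had 1 at 355 to 349 bases. Among 6019 protein-coding genes, 22.0% had an SBF match in such a window, 9.24% an Rlm1 match and 1.93% both; among the 10 genes, GSC2 alone had both. The Rlm1 motif was also matched before MKK1, at 433 to 424 and 355 to 346 bases, before RLM1 itself and before BCK1. The stress element AGGGG, matched before 34.0% of genes, was matched before RHO1, PKC1, BCK1 and SLG1, and the calcineurin element core GAGGCTG, matched before 3.04% of genes, before none of the 10. A match is a run of letters, not a measured binding site, and no match says nothing of the factor. Bases further upstream than 500 and other forms of these motifs, the calcineurin element included, were not searched.

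The other members also have 1 exon each. SLG1 lies at XV:341278-342414 on the minus strand and MID2 at XII:790676-791806 on the plus strand. RHO1 lies at XVI:875368-875997 (plus), PKC1 at II:14241-17696 (minus), BCK1 at X:247255-251691 (plus) and MKK1 at XV:772601-774127 (plus). SLT2 lies at VIII:168890-170344 and RLM1 at XVI:379120-381150, both on the minus strand.

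Read counts in genes ran from 305028 in WT 0 min replicate 1 to 887971 in WT 0 min replicate 3, with 402378 to 662865 in array libraries. Levels are given as TMM-scaled CPM, the read count of a gene relative to its library's total, and a count of 3 came to 3.17 to 7.97 CPM. Where the labels name no separate origin for replicates, p-values measure the spread between these samples. GFA1 checked the strain labels, at 1798 and 1979 CPM in the array libraries at 0 min and 32.8 to 343 CPM in the WT ones. The mating markers went against the shared label: summed over 6 a-cell genes the level was 1306 to 2827 CPM in array libraries and 165 to 486 CPM in WT libraries. Over 7 haploid-specific genes it was 641 to 870 CPM in array libraries and 108 to 197 CPM in WT libraries. All 6 a-cell genes and 7 of 7 haploid-specific genes were called higher in the array strain over 5 to 60 min. The 4 alpha-cell genes summed to 17.5 to 48.8 CPM in array libraries and 8.46 to 40.5 CPM in WT libraries, with MF(ALPHA)1 and MF(ALPHA)2 at 1 count each over all libraries. LEU2, a common selection marker, stood at 492 to 725 CPM in array libraries and 0 to 8.65 CPM in WT libraries. Every difference between the strains below is also a difference between these marker states, and the GFA1 array, mating state and LEU2 cannot be told apart. WT 0 min replicate 1 stood far from all other libraries, at 79.1 on the first principal component, where no other library passed 24.8, so WT results are also given without it.

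GSC2 was the member that changed most clearly: it rose in both strains through the hour and stood lower in the array strain after copper. In the array strain it stood at 69.3 and 81.3 CPM at 0 min, 104.2 and 100.9 at 5 min, 110.3 and 97.6 at 10 min, 133.9 and 125.6 at 15 min, then, at 20 min, at 144.5 and 109.1 CPM. Later it stood at 160.0 and 159.5 at 25 min, 194.2 and 185.8 at 30 min, 234.4 and 273.9 at 45 min, and 288.7 and 267.7 CPM at 60 min, replicate 1 given first. In WT it stood at 109.0, 116.5 and 81.4 CPM at 0 min, 105.9 and 119.4 at 5 min, 133.7 and 182.8 at 10 min, 166.0 and 205.8 at 15 min, then, at 20 min, at 230.2 and 249.3 CPM. Later it stood at 281.7 and 352.2 at 25 min, 287.1 and 392.7 at 30 min, 332.4 and 431.2 at 45 min, and 364.3 and 395.1 CPM at 60 min. Both array libraries at 5 min lay above both at 0 min. The WT libraries at 5 min overlapped the 3 at 0 min, and first lay wholly above them at 10 min. The 5 min libraries were not tested against 0 min, and how many of all genes showed such an order was not counted. The array strain reached its highest mean at 60 min, 278 CPM, and WT at 45 min, 382 CPM; in WT the 45 and 60 min libraries overlapped.

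For the tests, neighbouring times were averaged on the log2 scale and set against 0 min by edgeR's quasi-likelihood test, with Benjamini-Hochberg adjustment over all 4995 genes and a threshold of 0.05. In WT, GSC2 rose by log2 1.06 (SE 0.17, adjusted p = 0.000208) at 15 to 20 min, 1.70 (SE 0.17, adjusted p = 7.95e-07) at 25 to 30 min and 1.91 (SE 0.17, adjusted p = 6.84e-08) at 45 to 60 min. The last was a 3.76-fold difference. The array difference was 0.77 at 15 to 20 min (SE 0.20, adjusted p = 0.196), which missed the threshold. GSC2 rose in the array strain by 1.21 at 25 to 30 min (SE 0.20, adjusted p = 0.00237) and 1.82 at 45 to 60 min (SE 0.20, adjusted p = 8.93e-06). The last was a 3.53-fold difference. By rank of p among the 4995 genes GSC2 was the 1st at 25 to 30 min in WT and the 1st at 45 to 60 min in both strains. The rise went on within the copper series itself: from 45 to 60 min against 15 to 20 min, with no 0 min library in the difference, GSC2 was higher by 1.05 in the array strain (SE 0.15, adjusted p = 0.000472) and by 0.85 in WT (SE 0.14, adjusted p = 0.000161).

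The GSC2 calls in WT held without WT 0 min replicate 1 and without each other library in turn. The array call at 25 to 30 min was lost without array 0 min replicate 1 (log2 1.11, adjusted p = 0.164), while the 45 to 60 min call held without each library. With culture as a replicate block the array difference at 15 to 20 min passed the threshold (0.77, adjusted p = 0.0328), as it did in a fit of the array libraries alone (0.76, adjusted p = 0.0099). With 5 min in place of 0 min as the baseline, the difference at 15 to 20 min in WT was 0.90 (adjusted p = 0.0657) and that at 25 to 30 min in the array strain 0.76 (adjusted p = 0.0558). That baseline called 0.0601% and 0.761% of all genes in these comparisons, against 12.5% and 2.14% from 0 min.

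**Figure D1:**
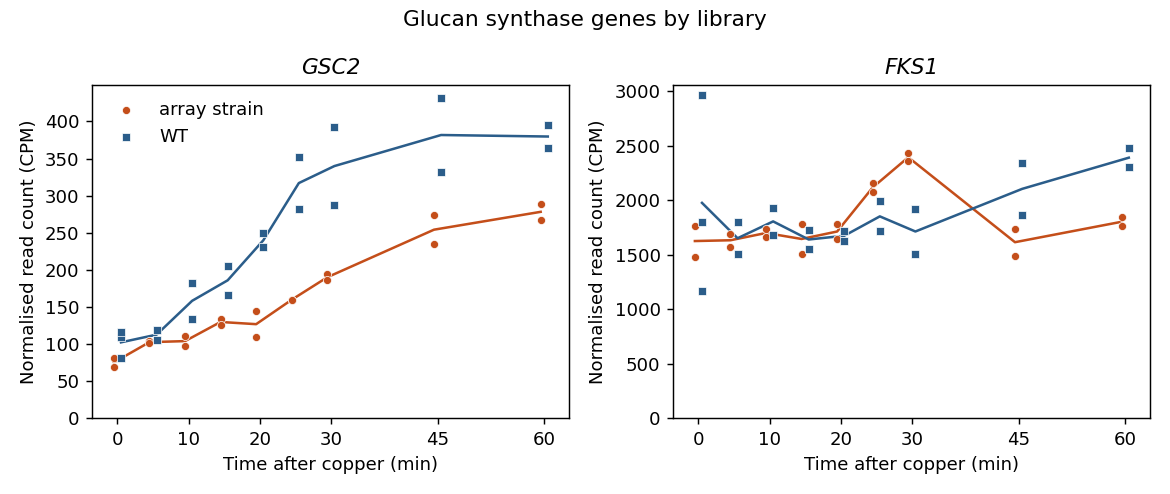
Normalised read count (CPM, vertical axes) of GSC2 and FKS1 against minutes after copper in single libraries of the array strain (circles) and WT (squares), with lines through the group means. GSC2 climbed to 267.7 to 288.7 CPM in the array strain and 364.3 to 395.1 CPM in WT by 60 min, while FKS1 in the array strain stood highest at 30 min.

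The strains differed in the level of GSC2 after copper. At each of the 8 times after 0 min both array libraries lay below both WT libraries, a pattern shown by 95 of 4995 genes (1.9%). Averaged over 5 to 60 min, GSC2 was lower in the array strain by log2 -0.63 (SE 0.07, adjusted p = 3.30e-07), that is, at 0.647 of the WT level, and leaving out any 1 library gave -0.66 to -0.60. At 0 min the difference was -0.42 (SE 0.21, adjusted p = 0.233), with 69.3 and 81.3 CPM in the array libraries and 81.4 to 116.5 CPM in the WT libraries. The change from 0 min was not shown to differ between the strains: array minus WT was -0.29 (95% interval -0.83 to 0.24) at 15 to 20 min, -0.49 (-1.02 to 0.04, adjusted p = 0.234) at 25 to 30 min and -0.09 (-0.62 to 0.44) at 45 to 60 min. A lower level at all times and a slower rise cannot be told apart from these libraries.

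FKS1, the main synthase gene of growing cells, moved on another course. Its array mean was 1625 ± 200 CPM at 0 min (SD, n = 2), its 25 min libraries stood at 2160 and 2073 CPM and its 30 min libraries at 2430 and 2356 CPM, and by 45 min it was back at 1737 and 1492 CPM. The 25 and 30 min libraries lay above every other library of that strain. In WT the 0 min libraries alone spread over 2967, 1796 and 1163 CPM, and the highest level after copper was at 60 min, with 2475 and 2304 CPM. FKS1 passed the threshold in none of the 13 comparisons: the array difference at 25 to 30 min was log2 0.47 (SE 0.23, adjusted p = 0.244) and the WT difference between 45 to 60 and 15 to 20 min was 0.44 (SE 0.19, adjusted p = 0.115). In a fit of the array libraries alone, which called 26.6% of its genes in that window, the first was 0.49 (adjusted p = 0.00104), and with the replicate block the second was 0.44 (adjusted p = 0.0373). The WT difference at 15 to 20 min was -0.25 (SE 0.20, adjusted p = 0.436), and -0.51 (adjusted p = 0.0498) with the replicate block. Without WT 0 min replicate 1, FKS1 was higher at 45 to 60 min in WT by 0.60 (adjusted p = 0.00629), against 0.19 (adjusted p = 0.800) with it. Between the strains over 5 to 60 min the difference was -0.02 (95% interval -0.22 to 0.17, adjusted p = 0.900).

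Set against FKS1 within the same library, a ratio that does not depend on library scaling, GSC2 was a larger share at 60 min than at 0 min in every library of both strains. No test was made of this share, and the percentages compare libraries. They were not calibrated to compare the amounts of both transcripts. The GSC2 count in the array strain was 4.64% ± 0.05 of the FKS1 count at 0 min, 6.29% ± 0.46 at 5 min, 7.46% ± 1.89 at 20 min, 7.94% ± 0.08 at 30 min, 15.9% ± 3.4 at 45 min and 15.5% ± 1.3 at 60 min (SD, n = 2). In WT it was 5.72% ± 1.79 at 0 min (SD, n = 3), 6.91% ± 1.44 at 5 min, 14.4% ± 1.4 at 20 min, 19.8% ± 1.0 at 30 min, 18.1% ± 0.4 at 45 min and 15.9% ± 1.7 at 60 min (SD, n = 2). Both array libraries at 30 min, 7.88% and 7.99%, lay below both WT ones, 19.1% and 20.5%, whereas at 45 and at 60 min the strains overlapped. The gap at 25 and 30 min combined a lower GSC2 and a higher FKS1 in the array strain, and by 60 min the array strain had more GSC2 and less FKS1 than at 30 min, and WT more FKS1.

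**Figure D2:**
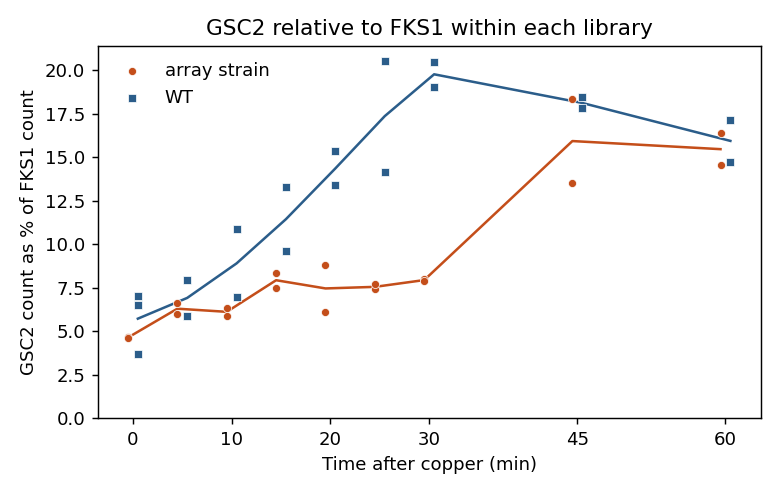
GSC2 count as a percentage of the FKS1 count in each library (vertical axis) against minutes after copper, for the array strain (circles) and WT (squares), with lines through the group means. The array strain reached at most 8.79% up to 30 min, where WT stood at 19.1% and 20.5%, and the strains overlapped at 45 and 60 min.

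YLR342W-A, a small gene that starts 183 bases after the end of FKS1 on the same strand (XII:815810-815983), is where reads from a long FKS1 transcript could be counted. It held 17467 counts over all libraries, at 552 to 1707 CPM, and its group means followed those of FKS1 with r = 0.90 over the 18 groups. Its array difference at 25 to 30 min was log2 0.65 (SE 0.27, adjusted p = 0.163). How many of these reads came from FKS1 was not tested.

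Of the sensor genes, MID2 swung widely at a low level and SLG1 did not pass the threshold anywhere. MID2 in the array strain stood at 41.2 and 32.8 CPM at 0 min, 52.5 and 54.3 at 15 min, 12.1 and 8.98 at 25 min, 9.71 and 26.2 at 30 min, and 31.5 and 22.5 CPM at 60 min. In WT it stood at 5.32, 30.3 and 19.0 CPM at 0 min, 24.4 and 37.6 at 5 min, 21.8 and 28.4 at 15 min, 17.1 and 17.3 at 30 min, and 3.98 and 5.84 CPM at 60 min. The array libraries dipped at 25 min and came back, and both WT libraries at 60 min lay below every other WT library but WT 0 min replicate 1, which had 2 counts. MID2 fell in WT at 45 to 60 min against 15 to 20 min by 1.49 on the log2 scale (SE 0.45, adjusted p = 0.0240). That call was lost without any 1 of WT 15 min replicate 2, both 20 min libraries, 45 min replicate 2 and both 60 min libraries (adjusted p up to 0.107), and in a fit of the WT libraries alone (adjusted p = 0.0638). Against 0 min the WT difference at 45 to 60 min was -1.19 (SE 0.48, adjusted p = 0.269), and -1.47 (adjusted p = 0.0280) without WT 0 min replicate 1.

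The array dip of MID2 at 25 to 30 min was -1.40 (SE 0.45, adjusted p = 0.0820), and -1.37 (adjusted p = 0.0143) in the fit of the array libraries alone that called 26.6% of its genes. Over 5 to 60 min MID2 was higher in the array strain by 0.60 (SE 0.20, adjusted p = 0.0271), with 31.1 ± 15.7 CPM in the array strain and 20.6 ± 9.5 CPM in WT (SD, n = 16 each). That call was lost with limma voom (adjusted p = 0.139) and without any 1 of array 25 min replicate 1, array 30 min replicate 2, array 45 min replicate 1, array 60 min replicate 1, WT 45 min replicate 2 and WT 60 min replicate 1. The antisense gene YLR331C shares 371 bases with MID2 and had 0 counts. SLG1 ranged over 10.5 to 32.8 CPM with a median of 15.9 in array libraries and over 6.34 to 44.5 CPM with a median of 15.8 in WT libraries, and its array minus WT difference over 5 to 60 min was -0.02 (95% interval -0.49 to 0.45).

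RHO1, the GTPase that links the sensors to the synthase and to Pkc1, passed the threshold in no comparison. It ranged over 197 to 323 CPM with a median of 235 in array libraries and over 149 to 327 CPM with a median of 276 in WT libraries, the lowest being WT 0 min replicate 1. In both strains the mean was highest at 20 min, 309 CPM in the array strain and 302 CPM in WT, and lowest at 60 min, 209 CPM in the array strain and 212 CPM in WT. From 45 to 60 min against 15 to 20 min the log2 difference was -0.48 in the array strain (SE 0.15, adjusted p = 0.106) and -0.40 in WT (SE 0.14, adjusted p = 0.0630). Neither passed the threshold, but in a fit of the array libraries alone the first was -0.44 (adjusted p = 0.00555), and with the replicate block the second was -0.39 (adjusted p = 0.0412).

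PKC1, the kinase gene downstream of RHO1, ranged over 124 to 269 CPM with a median of 153 in array libraries and over 78.2 to 298 CPM with a median of 189 in WT libraries. Both extremes of WT were 0 min libraries, 298 CPM in replicate 1 and 78.2 CPM in replicate 3. The WT differences from 0 min were 0.25, 0.08 and 0.24 in the 3 windows (SE 0.25 each), none called. Without WT 0 min replicate 1 they were 0.87, 0.70 and 0.86 (adjusted p = 0.00236, 0.0113 and 0.00326), and without replicate 3 they were -0.13, -0.30 and -0.14, so which 0 min library stood in decided both call and sign. The mean of PKC1 in the array strain was highest at 30 min, with 269 and 186 CPM in its libraries, against 124 and 137 CPM at 0 min. At 25 to 30 min the difference was 0.67 (SE 0.29, adjusted p = 0.182), which missed the threshold. It was 0.69 (adjusted p = 0.00170) in the fit of the array libraries alone that called 26.6% of its genes.

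**Figure D3:**
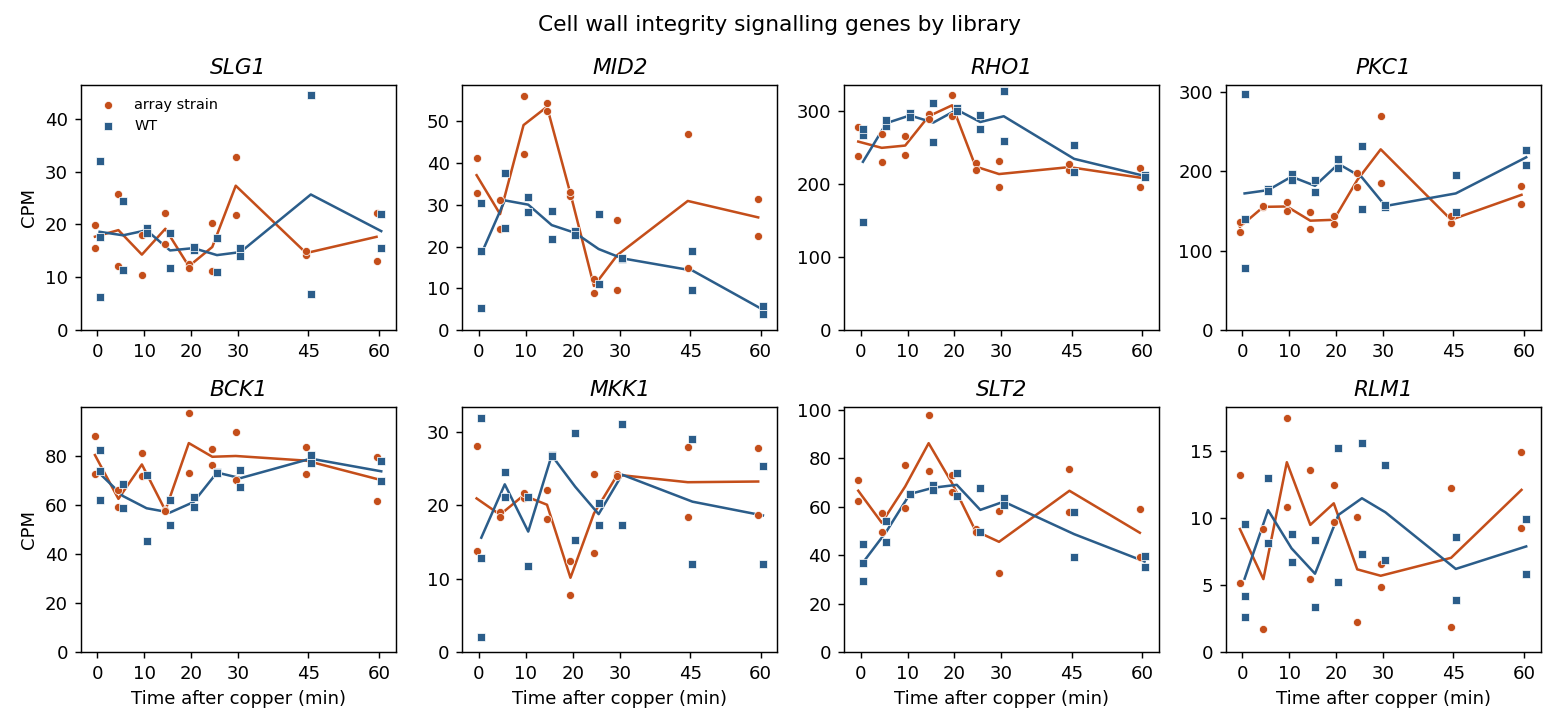
Normalised read count (CPM, vertical axes from 0) of the 8 signalling genes against minutes after copper in single libraries of the array strain (circles) and WT (squares), with lines through the group means. SLT2 in WT rose to 64.3 to 73.7 CPM at 15 and 20 min, the 3 WT libraries at 0 min spread over 78.2 to 298 CPM for PKC1, and MID2 in the array strain dipped to 8.98 and 12.1 CPM at 25 min.

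SLT2, which encodes the MAP kinase at the end of the cascade, was called in WT and in no array comparison with 0 min. In the array strain it stood at 70.9 and 62.2 CPM at 0 min, then, at 15 min, at 97.7 and 74.7 CPM. Later it stood at 73.1 and 66.2 at 20 min, 50.6 and 49.4 at 25 min, 58.3 and 32.8 at 30 min, 75.4 and 57.8 at 45 min, and 59.2 and 39.3 CPM at 60 min. In WT it stood at 29.2, 44.7 and 37.0 CPM at 0 min, 45.6 and 54.0 at 5 min, then, at 15 min, at 68.8 and 66.9 CPM. Later it stood at 64.3 and 73.7 at 20 min, 49.7 and 67.7 at 25 min, 63.6 and 60.5 at 30 min, 39.4 and 58.0 at 45 min, and 39.8 and 35.0 CPM at 60 min. The WT libraries lay above all 3 of 0 min at 5 min and up to 30 min and overlapped them again at 45 and 60 min. Both array libraries at 0 min were already above all 3 WT ones.

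SLT2 rose in WT by log2 0.86 at 15 to 20 min (SE 0.21, adjusted p = 0.00796), a call that held without each library in turn. At 25 to 30 min it was higher by 0.68 (SE 0.21, adjusted p = 0.0370). That call was lost without WT 0 min replicates 1 or 3, 25 min replicate 2 or either 30 min library (adjusted p = 0.0691 to 0.200), and in DESeq2 (adjusted p = 0.0905) and with the replicate block (adjusted p = 0.0541). With 5 min as the baseline neither was called (0.46, adjusted p = 0.786, and 0.28, adjusted p = 0.879). That baseline called 0.0601% and 1% of all genes in these windows, against 12.5% and 10.2% from 0 min. From 45 to 60 min against 15 to 20 min SLT2 fell in WT by 0.68 on the log2 scale (SE 0.19, adjusted p = 0.0160), lost without WT 20 min replicate 2, 45 min replicate 1 or 60 min replicate 2 (adjusted p = 0.0626 to 0.0779). At 60 min WT was thus near its 0 min level, with 37.4 ± 3.4 CPM at 60 min (SD, n = 2) and 37.0 ± 7.7 CPM at 0 min (SD, n = 3).

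No SLT2 difference from 0 min was called in the array strain: 0.22 at 15 to 20 min (95% interval -0.23 to 0.66), -0.49 at 25 to 30 min (-0.96 to -0.01, adjusted p = 0.220) and -0.22 at 45 to 60 min (-0.68 to 0.24). At 0 min the array minus WT difference was 0.82 (SE 0.24, adjusted p = 0.0581), a difference that missed the threshold and passed it with limma voom (adjusted p = 0.0405) and without WT 0 min replicate 2 (adjusted p = 0.0176). The latter fits called 4.12% and 17.7% of all genes, against 3.44% in the main fit. At 25 to 30 min all 4 array libraries lay below both array 0 min libraries, while all 4 WT libraries lay above all 3 WT 0 min libraries. Such opposite movement was looked for among the members only, so its share among all genes is not known. The difference of these changes, array minus WT, was -1.16 (SE 0.31, adjusted p = 0.0687). It passed the threshold with limma voom (-1.17, adjusted p = 0.0416), with the replicate block (-1.16, adjusted p = 0.0246) and without WT 0 min replicate 2 or 3 (-1.30 and -1.14, adjusted p = 0.0108 and 0.0453). In that order these fits called 3.44%, 15.3%, 17.9% and 7.62% of all genes, against 0.14% in the main fit. Without WT 25 min replicate 1, which left replicate 2 alone at that time, the SLT2 difference was -1.24, larger in size than in the main fit. Over 5 to 60 min the level of SLT2 differed by 0.09 (95% interval -0.11 to 0.28) between the strains.

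BCK1 and MKK1, which encode the kinases above Slt2, passed the threshold in no comparison. BCK1 ranged over 57.7 to 97.4 CPM with a median of 72.9 in array libraries and over 45.3 to 82.4 CPM with a median of 69.7 in WT libraries, and its difference between the strains over 5 to 60 min was 0.13 (95% interval -0.03 to 0.30). MKK1 ranged over 7.79 to 28.0 CPM with a median of 20.1 in array libraries and over 2.11 to 31.9 CPM with a median of 21.1 in WT libraries. Its 3 WT libraries at 0 min held 12, 8 and 2 counts, or 31.9, 12.8 and 2.11 CPM. Without replicate 1 of these, MKK1 was called higher in WT in all 3 windows, by 1.89, 1.69 and 1.55 (adjusted p = 0.0134, 0.0263 and 0.0451), against 0.99, 0.79 and 0.65 with it. With all libraries, limma voom called MKK1 at 15 to 20 min (1.64, adjusted p = 0.0305). RLM1, the gene of the transcription factor at the end of the cascade, had 87 counts in array libraries and 93 in WT libraries and was not tested. It ranged over 1.74 to 17.5 CPM in array libraries and 2.66 to 15.6 CPM in WT libraries. In the fit with no filter on low counts its difference between the strains over 5 to 60 min was -0.04 (SE 0.28, adjusted p = 1.00), and none of its 13 comparisons passed the threshold.

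Of the 9 tested members, 0 were called at 15 to 20 min in the array strain (0.04% of all genes), 1 at 25 to 30 min (2.14%), 1 at 45 to 60 min (0.18%) and 1 between 15 to 20 and 45 to 60 min (1.52%), where each single call was GSC2. At 15 to 20 min in the array strain 1 member was at an unadjusted p under 0.05, and DESeq2 called 0. In WT 2 were called at 15 to 20 min (12.5% of all genes), 2 at 25 to 30 min (10.2%), 1 at 45 to 60 min (1.58%) and 3 between 15 to 20 and 45 to 60 min (15.6%), where GSC2 was higher (8.83% of all genes) and SLT2 and MID2 were lower (6.81%). Without WT 0 min replicate 1 the WT counts against 0 min were 4 (13.5% of all genes), 3 (15.0%) and 5 (16.6%). Between the strains, 0 were called at 0 min (3.44% of all genes), with 2 at an unadjusted p under 0.05, and 2 over 5 to 60 min (23.9%). For the difference of the changes 0 were called in each window (0%, 0.14% and 0% of all genes), with 2, 3 and 0 members at an unadjusted p under 0.05; DESeq2 called 0 and limma voom 0, 1 and 0. At 25 to 30 min DESeq2 called 3.26% of all genes and limma voom 3.44%. With the replicate block, which called 15.3% of all genes, 3 members were called for the difference at 25 to 30 min: SLT2, FKS1 (0.87, adjusted p = 0.0329) and PKC1 (0.96, adjusted p = 0.0348). Without WT 0 min replicate 1 the PKC1 value was -0.03. The median log2 difference of the 9 members from 0 min was 0.09, 0.03 and -0.11 in the array strain (0.01, 0.00 and -0.02 over all genes) and 0.30, 0.08 and 0.19 in WT (-0.01, 0.00 and -0.04 over all genes). Over 5 to 60 min the median array minus WT difference was -0.02 for the members and 0.00 for all genes.

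**Figure D4:**
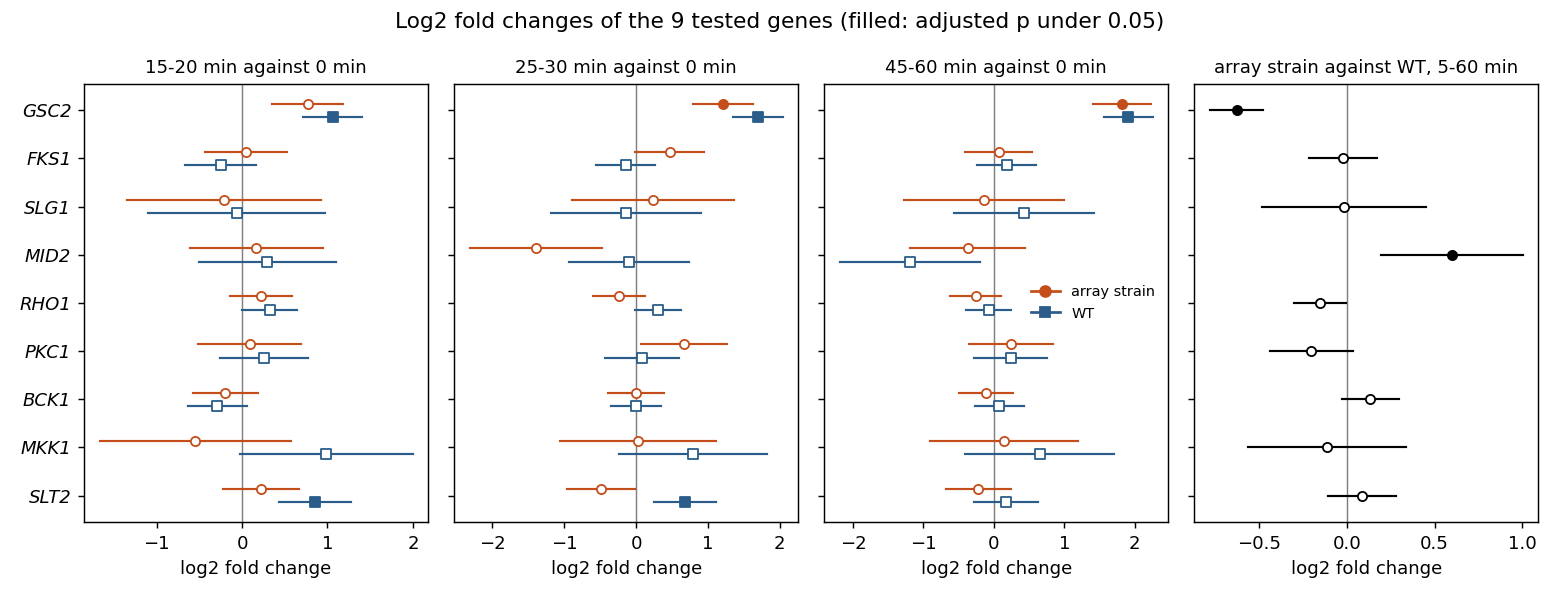
Log2 fold change with its 95% interval (horizontal axes) of the 9 tested genes for 3 windows against 0 min in the array strain (circles) and WT (squares), and for the array strain against WT over 5 to 60 min (right); filled symbols have an adjusted p under 0.05. GSC2 is filled in all 3 windows in WT, in the last 2 in the array strain and in the comparison of strains, and SLT2 is filled in WT at 15 to 20 and 25 to 30 min.

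Among themselves the members fell on different courses over the 18 group means (Pearson r of log2 CPM, points that share libraries, depth and strain state). SLT2 went with MID2 (r = 0.76) and RHO1 (r = 0.73), and FKS1 with PKC1 (r = 0.67), while FKS1 ran opposite to MID2 (r = -0.78) and SLT2 (r = -0.70). GSC2 stood at r = 0.44 with FKS1 and r = -0.22 with SLT2. Over the same 18 means, the genes nearest to GSC2 were ATG5 (autophagy), SIC1 (a cyclin-dependent kinase inhibitor), SUL2 (a sulfate permease), YNL208W and SSA4 (a stress-induced Hsp70), at r = 0.89 to 0.90. Nearest to FKS1 were SNR86, SUM1, YLR342W-A, SMI1 (the glucan synthesis regulator also called KNR4) and SRP68, at r = 0.89 to 0.91. Nearest to SLT2 were BOL2, ERG28, STV1, MDM35 and ERG26, at r = 0.88 to 0.93, of which ERG28 and ERG26 act in ergosterol synthesis.

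Beyond the members, 25 other pathway signalling genes were listed, of which 21 were tested; FKS3, MTL1, KDX1 and SMP1 had too few counts. The 1 called against 0 min in the array strain was SWI4, the DNA-binding subunit of SBF, with 223 ± 43 CPM at 25 to 30 min (n = 4) and 91.3 ± 5.4 CPM at 0 min (SD, n = 2; log2 1.27, adjusted p = 0.00281, 0.164 without array 0 min replicate 1). In WT at 15 to 20 min the 1 called was PTP2, a phosphatase gene that acts on Slt2 and Hog1, with 64.5 ± 8.0 CPM (n = 4) and 28.0 ± 3.5 CPM at 0 min (SD, n = 3; log2 1.17, adjusted p = 0.00447, held without each library). SDP1, a stress-induced phosphatase gene for Slt2, fell in WT at 45 to 60 min against 15 to 20 min by 1.87 on the log2 scale (adjusted p = 0.000388), also held without each library. Further calls in WT included ROM1 and SDP1 at 45 to 60 min (1.58% of all genes called), and ROM1, SWI4, PTP3, KNR4 and WSC2 between 15 to 20 and 45 to 60 min (15.6%). With 1 library left out, the calls at 45 to 60 min were lost in 2 of 7 cases (ROM1) and 1 of 7 (SDP1). Those between the windows were lost in 8 of 8 cases for WSC2, 6 of 8 each for ROM1, PTP3 and KNR4, and 4 of 8 for SWI4. The list's median differences from 0 min were 0.13, 0.17 and -0.02 in the array strain and -0.12, -0.15 and -0.04 in WT in the 3 windows. All tested genes had medians of 0.01, 0.00 and -0.02 in the array strain and -0.01, 0.00 and -0.04 in WT. Between the strains over 5 to 60 min 5 of 21 were called (23.9% of all genes). Of these, the exchange factor gene ROM1 was lower in the array strain (-0.66, adjusted p = 0.000234) and ZEO1, a partner of Mid2, was higher (0.72, adjusted p = 0.00143). At 0 min ROM1 was also called lower (-1.36, adjusted p = 0.0120, lost in 2 of 5 cases with 1 library left out).

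Of 14 cell wall genes listed as targets of Slt2 and Rlm1, 13 were tested, and 6 of these were called higher in WT at 15 to 20 min. For the array strain 0, 1 and 0 of 13 were called in the 3 windows (0.04%, 2.14% and 0.18% of all genes). The 1 at 25 to 30 min was NCW2, a wall protein gene, with 209 ± 36 CPM (n = 4) and 81.7 ± 10.4 CPM at 0 min (SD, n = 2; log2 1.35, adjusted p = 0.0104, not called without either array 0 min library). In WT 6 of 13 were called higher at 15 to 20 min and 6 of 13 at 25 to 30 min, where 4.88% and 4.28% of all genes were called higher. For the difference of the changes, array minus WT, the main fit called 0 of 13 in each window (0%, 0.14% and 0% of all genes). NCW2 stood in WT at 358 ± 64 CPM at 15 to 20 min (n = 4) and 109 ± 43 CPM at 0 min (SD, n = 3; log2 1.68, adjusted p = 3.17e-05). HSP150, a wall glycoprotein gene of the PIR family, stood at 103 ± 32 CPM at 15 to 20 min (n = 4) and 23.4 ± 13.6 CPM at 0 min (SD, n = 3; log2 2.24, adjusted p = 0.00142). SED1, a major wall glycoprotein gene, stood at 280 ± 56 CPM at 15 to 20 min (n = 4) and 66.6 ± 50.2 CPM at 0 min (SD, n = 3; log2 2.09, adjusted p = 0.00403).

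These 3 calls at 15 to 20 min held without each library, and PIR1 (2.11, adjusted p = 0.00969) was lost without WT 0 min replicate 3. CCW14 (0.91, adjusted p = 0.0290) and CRH1 (0.86, adjusted p = 0.0439) were also called, and were lost in 4 and 5 of the 7 cases with 1 library left out. At 25 to 30 min the calls were NCW2 (1.73), HSP150 (2.35), PIR1 (2.58), SED1 (2.03), CRH1 (1.04) and PST1 (1.57), with adjusted p from 3.37e-05 to 0.0217. At 45 to 60 min they were NCW2 (1.22, adjusted p = 0.00265, held without each library) and YPS3 (1.22, adjusted p = 0.0430, lost in 6 of 7 cases). Leaving out 1 library gave 4 to 7 calls at 15 to 20 min (4 without WT 15 min replicate 2 or either 20 min library) and 2 to 7 at 25 to 30 min (2 without WT 25 min replicate 2), with 6 and 7 without WT 0 min replicate 1. In a fit of the WT libraries alone the counts were 2 and 3 (3.93% and 4.4% of all its genes called). With 5 min as the baseline they were 0 and 0 (0.0601% and 1% of all genes called). The main fit against 0 min called 12.5% and 10.2% of all genes. At 45 to 60 min against 15 to 20 min PRM5, a gene of a membrane protein, fell in WT by 1.75 on the log2 scale (adjusted p = 0.00195), held without each library. SED1, CCW14 and HSP150 were also called lower there (adjusted p = 0.0136 to 0.0453), and each was lost in at least 4 of 8 cases with 1 library left out. Between the strains over 5 to 60 min 7 of 13 were called (23.9% of all genes), 4 lower in the array strain (CWP1 -1.25, SED1 -1.39, NCW2 -0.83, PST1 -0.84) and 3 higher (PRM5 1.50, YPS3 0.48 and the chitin synthase gene CHS3 0.41). Adjusted p ran from 3.29e-08 to 0.0109, and all 7 held without each library. At 0 min PRM5 was called higher in the array strain (1.28, adjusted p = 0.0476, lost in 3 of 5 cases with 1 library left out). The list's median difference from 0 min was 0.59, -0.01 and 0.19 in the array strain and 0.86, 0.71 and 0.41 in WT in the 3 windows.

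Calcineurin and its targets form the other input known for GSC2, and 8 genes of that branch were tested. CMK2, a calmodulin-dependent kinase gene, stood in the array strain at 178 ± 19 CPM at 25 to 30 min (n = 4) and 81.2 ± 9.8 CPM at 0 min (SD, n = 2; log2 1.13, adjusted p = 0.0169). In WT it stood at 380 ± 75 CPM at 25 to 30 min (n = 4) and 180 ± 64 CPM at 0 min (SD, n = 3; log2 1.04, adjusted p = 0.000931). RCN2, a calcineurin regulator gene, was the other one called in both strains in that window, by 1.11 in the array strain (adjusted p = 0.0245) and 0.85 in WT (adjusted p = 0.00677). At 15 to 20 min the WT calls were CMK2 (0.97, adjusted p = 0.00177) and RCN2 (0.83, adjusted p = 0.00866), and at 45 to 60 min against 15 to 20 min CMK2 was lower in WT (-0.59, adjusted p = 0.0259, lost in 6 of 8 cases with 1 library left out). The WT calls at 25 to 30 min held without each library. Both array calls were lost without either array 0 min library. CMK2 was also lost without 25 min replicate 1 or 30 min replicate 2 (adjusted p up to 0.305), and RCN2 without 25 min replicate 2 or 30 min replicate 2 (adjusted p up to 0.265). Over 5 to 60 min 5 of 8 were lower in the array strain (11.9% of all genes were): CMK2 (-1.09), RCN1 (-0.97), PMC1, the vacuolar calcium pump gene (-0.86), RCN2 (-0.70) and CRZ1, the calcineurin-dependent transcription factor gene (-0.41), with adjusted p from 9.24e-10 to 0.0329. Of these, CRZ1 lost its call without 1 library in 11 of 32 cases (adjusted p up to 0.0745). The list's median difference from 0 min was 0.41, 0.70 and 0.40 in the array strain and 0.63, 0.44 and 0.15 in WT in the 3 windows. For the difference of the changes, array minus WT, 0 of 8 were called in each window (0%, 0.14% and 0% of all genes). Whether calcineurin had a part in the level of GSC2 was not tested. Over 5 to 60 min CMK2 stood at 147 ± 30 CPM in the array strain and 316 ± 77 CPM in WT (SD, n = 16 each). At 0 min CMK2 was called lower as well (-1.18, adjusted p = 0.00881, not called without either array 0 min library).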

How the data were processed

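RNA of 37 yeast samples was sequenced as Lexogen QuantSeq 3′ libraries. The authors deposited 1 table of whole-number read counts, not normalised. The submitters' processing notes list STAR 2.7.10a, HTSeq 2.0.2, SAMtools 1.10 and FastQC 0.11.9, and build R64; how HTSeq treated strand, and which annotation it used, is not given in the sources used here. Reads in genes made up 36.6% to 54.6% of those listed per library; HTSeq's summary entries (34.8% to 50.6% in no feature, 6.17% to 13.6% not unique) stayed out of library sizes, and PCR copies could not be told from molecules. Of 6464 genes, 6461 matched the reference by identifier. Counts were fitted in edgeR 4.0.16 (R 4.3.3; TMM, filterByExpr at a minimum count of 10, quasi-likelihood F test, 18 strain and time groups, 19 residual degrees of freedom, biological coefficient of variation 19.6%), giving 13 comparisons over 4995 genes with Benjamini-Hochberg adjustment. The fit was tested on simulated counts.

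Alternatives were DESeq2 1.42.0, limma 3.58.1 voom with culture as a random effect, DESeq2 size factors, GFA1 and CUP1 left out, no filter, culture as a replicate block, 5 min as baseline, only the strain's own libraries, and each library left out. Same-numbered libraries of a strain were taken as 1 culture sampled over time, from the growth note; the difference of replicates 1 and 2 correlated between times across genes by -0.17 to 0.21 (array strain, 36 pairs of times, median 0.07) and -0.39 to 0.57 (WT, median 0.09). Named genes were all 10 members and the 5 genes nearest in pattern to GSC2, FKS1 and SLT2. Called genes of the signalling, cell wall and calcineurin lists were also named. At most 5 per list and comparison were planned, by smallest p, and all were named where more were called. Members and lists were chosen with earlier results of these data known. Sequences came from the R64 reference of RefSeq. Some called genes of the signalling list are not reported here.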

Additional observations from a re-analysis of the deposited data

Results flagged for a closer look

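Among the members, SLT2 stood out for opposite movement in the strains at 25 to 30 min. How many of all genes moved in this way was not counted. All 4 array libraries (32.8 to 58.3 CPM) lay below both array libraries at 0 min (62.2 and 70.9 CPM), and all 4 WT libraries (49.7 to 67.7 CPM) lay above all 3 WT libraries at 0 min (29.2 to 44.7 CPM). The array minus WT difference of the log2 changes was -1.16 (SE 0.31), with an adjusted p of 0.0687 by edgeR's quasi-likelihood test over 4995 genes. Values ran from 11 counts in WT 0 min replicate 1 upwards, so counting error is part of the spread. The a-cell level, summed over 6 genes, also moved in this window, at 1306 to 1961 CPM in array libraries at 25 to 30 min and 2474 to 2586 CPM at 0 min; its part in the SLT2 result was not tested.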

How the results depend on the processing

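Member values under alternatives were tallied only for pairs of a member and a comparison called in at least 1 fit. Sign changes in other pairs were not counted. Of the tallied values, 464 kept direction and side of the threshold, 30 gained and 31 lost a call, and 18 changed sign. The 18 were all in FKS1, PKC1 and MKK1. The cause was not tested. In WT at 15 to 20 min FKS1 was 0.0048 with the 5 min baseline, and -0.52 to 0.17 with each library left out (0.17 without WT 0 min replicate 1). At 45 to 60 min it was -0.069 with the replicate block and -0.084 to 0.60 with each library left out. MKK1 was -0.094 at 25 to 30 min and -0.23 at 45 to 60 min with the 5 min baseline, and at 45 to 60 min -0.074 with the replicate block and -0.080 to 1.55 with each library left out. PKC1 with the replicate block was -0.11, -0.29 and -0.12 in the 3 windows and with the 5 min baseline -0.025 at 25 to 30 min. With each library left out PKC1 ran over -0.13 to 0.87, -0.30 to 0.70 (-0.01 when replicate 2 of WT 0 min was dropped and -0.07 when replicate 1 of 25 min was) and -0.14 to 0.86, and its difference between strains at 25 to 30 min over -0.031 to 0.97. The low ends against 0 min were without WT 0 min replicate 3 and the high ends without replicate 1.

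Counts of members called changed as follows. The share of all genes called in the same fit is given in brackets. In WT at 15 to 20 min 2 became 0 with the 5 min baseline (0.0601%), and 3 with limma voom (16.9%) and with the replicate block (17.7%). At 25 to 30 min 2 became 1 with DESeq2 (9.65%), no filter (7.67%), the replicate block (15.1%), the 5 min baseline (1%) and the strain's own libraries (4.4%). At 45 to 60 min 1 became 2 with the 5 min baseline (1.94%). Late against early 3 became 5 with the replicate block (21%) and 2 with the strain's own libraries (7.43%). In the array strain 0 became 1 at 15 to 20 min with the replicate block (0.3%) and with its own libraries (2.9%). At 25 to 30 min 1 became 0 with the 5 min baseline (0.761%) and 4 with its own libraries (26.6%). Late against early 1 became 2 with its own libraries (11.8%). Limma voom gave 1 at 0 min (4.12%) and 1 over 5 to 60 min (14.4%) between strains. It gave 1 for the difference at 25 to 30 min (3.44%), where the block gave 3 (15.3%). Leaving out each library gave, for WT, 2 to 4, 1 to 3, 1 to 5 and 1 to 3; for the array strain 0 to 0, 0 to 1, 1 to 1 and 1 to 1; between strains 0 to 1 at 0 min and 1 to 2 over 5 to 60 min; for the differences 0 to 0, 0 to 3 and 0 to 0. The block could not be fitted for comparisons of strains at the same time. Calls of single members under the block are given beside their results, and it changed no other member's call. Counts of list genes were computed under the same settings, chosen after the data were seen. Depth limits RLM1, MKK1, SLG1 and MID2, whose libraries often held under 20 counts.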
